A study of Homo sapiens with 8 samples.

Results

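The 10 genes described here encode heat shock proteins of the cytosol and of mitochondria. They are the HSP90 genes HSP90AA1 and HSP90AB1, the HSP70 genes HSPA8, HSPA1A and HSPA1B, the HSP110 gene HSPH1, the HSP40 (J-protein) genes DNAJB1 and DNAJA1, the small heat shock protein gene HSPB1 and the mitochondrial HSP60 gene HSPD1. They were taken by name from the 56638 entries of each of the 3 deposited tables, and all 10 were found in each. RNA sequencing was done on A375, a human malignant melanoma cell line, grown with 10% serum. Cells received the plasmid pcDNA3.1(-) by lipid transfection 24 h after seeding and were harvested 48 h later. The plasmid was empty (vector), or expressed full-length SLNCR1, SLNCR1 delta conserved (SLNCR1 without its conserved region) or SLNCR1 conserved (that region alone). All 4 groups, the control included, were therefore transfected, and each had 2 libraries of poly(A)-selected RNA.

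SLNCR1 is a long noncoding RNA, and the constructs ask how gene expression responds to the whole RNA and to its parts. A gene-specific read-out of the plasmids is limited: RefSeq gives SLNCR1 as a synonym of LINC00673, and the tables count that region as LINC00511. LINC00511 had a normalized count of 623 and 617 in vector, 859 and 880 with full-length SLNCR1, 1045 and 1133 with SLNCR1 conserved, and 1147 and 864 with SLNCR1 delta conserved. All 6 libraries with a construct stood above both vector libraries. Among markers of the melanocyte and neural crest lineage, SOX10 had 2933 to 3654 reads in every library, while the pigmentation genes TYR and DCT had at most 2 and 5. Of the markers of other cell types, the keratins KRT10 (545 to 666 reads) and KRT14 (68 to 134) and the collagen COL1A1 (139 to 310) were read in every library. The other keratinocyte markers were low, with 4 to 9 reads for KRT5 and at most 1 for KRT1. So were the other fibroblast markers: COL1A2 had 1 to 42 reads, COL3A1 2 to 60, PDGFRA 13 to 31 and DCN 4 to 16. Endothelial VWF had 9 to 28 reads and PECAM1 was at 0, while leukocyte CD14 had 12 to 25 reads and PTPRC at most 2. Whether a group's libraries stem from separate cultures is not said in the labels. The p-values therefore measure only how libraries differ, which may be technical.

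Heat shock proteins are molecular chaperones, which bind unfolded or partly folded proteins and help them to fold, to assemble or to be degraded. HSP70 proteins bind short hydrophobic stretches in a cycle of ATP hydrolysis that J-proteins start and nucleotide exchange factors end, and HSP90 takes over late-folding clients such as kinases and steroid receptors. Some members (HSPA8, HSP90AB1) are made all the time, others (HSPA1A, HSPA1B, DNAJB1) mostly after heat or proteotoxic stress, when the transcription factor HSF1 binds heat shock elements in their promoters. Cancer cells, melanoma included, are known for high chaperone levels, and mutant BRAF is an HSP90 client.

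The promoters are shown because HSF1 binds heat shock elements in promoters, though not every member had a match in the windows searched. RefSeq windows from 250 bases before to 50 after each annotated start (GRCh38.p14) were searched on both strands for inverted repeats of the GAA unit. The form with 3 units was GAANNTTCNNGAA or TTCNNGAANNTTC, each the reverse complement of the other, and the form with 2 units was GAANNTTC or TTCNNGAA, which lies within the longer one. The 10 genes have 16 such windows. A form with 3 units was found for 5 of the 10 genes (HSP90AA1, HSP90AB1, HSPA8, DNAJA1 and HSPD1), in 5 of the 16 windows, against 0.49% of 35116 windows of all genes. A form with 2 units was found for 9 genes, all but HSPH1, in any of the gene's windows. Of single windows of all genes 13.5% held one, a share by window that is not comparable with this count by gene. The DNAJA1 match lies just after its start, and the others lie before theirs. A match is a description of letters and not a bound site. In the lines below the capitals mark the matches of 3 units, or those of 2 units where the window has none of 3, and each sequence is on the gene's own strand, 5′ to 3′.
HSP90AB1: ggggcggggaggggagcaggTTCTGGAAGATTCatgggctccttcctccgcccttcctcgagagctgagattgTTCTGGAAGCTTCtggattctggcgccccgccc
HSP90AA1: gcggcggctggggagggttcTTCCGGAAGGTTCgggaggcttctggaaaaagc
HSPA8: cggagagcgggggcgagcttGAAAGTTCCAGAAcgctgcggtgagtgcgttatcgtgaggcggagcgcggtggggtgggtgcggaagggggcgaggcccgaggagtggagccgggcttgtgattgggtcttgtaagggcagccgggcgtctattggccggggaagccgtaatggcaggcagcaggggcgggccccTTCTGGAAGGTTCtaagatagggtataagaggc
HSPD1: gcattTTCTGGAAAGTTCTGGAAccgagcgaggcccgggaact
HSPA1A: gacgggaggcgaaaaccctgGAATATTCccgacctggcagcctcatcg
HSPA1B: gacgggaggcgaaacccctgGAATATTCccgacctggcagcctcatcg
The first lies at chr6:44247758-44247863 on the plus strand, the second at chr14:102087100-102087152 on the minus strand, and the third at chr11:123062159-123062386 on the minus strand. The HSPD1 stretch is chr2:197500048-197500090 on the minus strand, where both forms run into each other. The inducible pair lies at chr6:31815417-31815464 and chr6:31827613-31827660, both on the plus strand of chromosome 6. With the 250 bases before each start aligned, HSPA1A and HSPA1B were identical in 93.6% of the alignment's columns, gaps counted, and in this window each carries a match of 2 units only.

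The reads of single libraries were solved from the deposited group means. Letter a stands for the deeper and b for the shallower of a group's libraries, and neither is tied to a replicate number. The reads assigned to genes ran from 12015394 in vector library a to 8222868 in SLNCR1 delta conserved library b. In order of total reads the libraries were vector a, SLNCR1 conserved a, vector b, SLNCR1 conserved b, SLNCR1 a, delta conserved a, SLNCR1 b and delta conserved b. Depth thus differed with the construct, the vector libraries being deep and the delta conserved libraries shallow. Levels below are normalized counts, that is, reads divided by a size factor for the library (the median of its ratios to the other libraries over genes).

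Some of the heat shock genes were higher than in vector with SLNCR1 delta conserved, and how many passed with SLNCR1 depended on the test. By the authors' adjusted p under 0.05 in the authors' deposited table, 3 of 10 rose with SLNCR1 delta conserved (HSPA8, HSP90AB1 and HSP90AA1), where 2.26% of all entries tested passed in either direction and 1.11% were higher. With SLNCR1 none of the 10 passed by the authors' deposited table, where 0.882% of entries passed and 0.0388% were higher; 6 of the 10 had an unadjusted p under 0.05, which 6.25% of entries had. With SLNCR1 conserved none passed either by the authors' deposited table, where 0.0175% of entries passed; 2 of the 10 (DNAJA1 and HSPH1) had an unadjusted p under 0.05, which 1.34% of entries had. A second test, limma on log2(normalized count + 1), called the same 6 genes higher with SLNCR1 and with SLNCR1 delta conserved: HSP90AA1, HSP90AB1, HSPA8, DNAJA1, HSPB1 and HSPD1. Of 16049 genes, 3.97% and 5.18% were called higher in these comparisons, and 11.4% and 10.4% in either direction. With SLNCR1 conserved limma called none of the members and 0.00623% of all genes; 2 members (DNAJA1 and HSPH1) had an unadjusted p under 0.05, which 5.45% of all genes had. The median log2 difference of the 10 by limma was 0.23 with SLNCR1, 0.13 with SLNCR1 conserved and 0.26 with SLNCR1 delta conserved, against medians over all genes of -0.00026, 0.0198 and -0.00245. These 3 comparisons share the vector libraries. The limma calls with SLNCR1 all ended without vector library a or SLNCR1 library b (0 members called), and with trimmed-mean scaling HSP90AB1 alone was called. Those with delta conserved all ended without vector library a or delta conserved library b (0 members called). In RNA from whole cultures, a change in the share of cells that express a gene and a change in RNA per cell cannot be told apart.

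**Figure D1:**
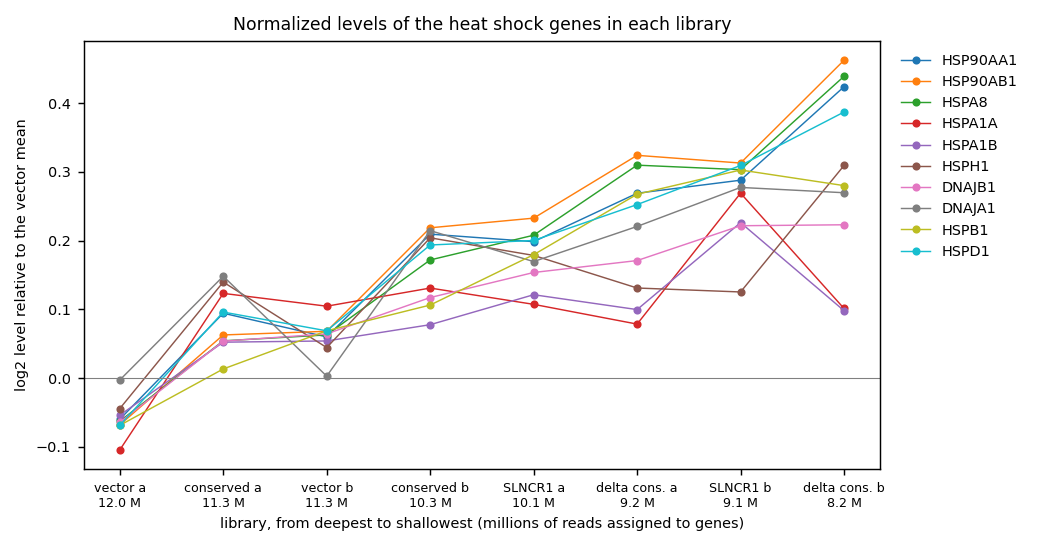
Normalized level of each of the 10 heat shock genes in each library, as log2 relative to the gene's mean in vector (vertical axis), with the libraries ordered from deepest to shallowest and their reads assigned to genes beneath (horizontal axis); each line is 1 gene and each point 1 library. The median of the 10 genes stands at -0.06 in vector library a and at 0.29 in SLNCR1 delta conserved library b, the ends of the depth range.

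HSP90AB1 encodes the constitutive HSP90 of the cytosol. It had 4057 and 4064 reads in vector, 4021 and 3876 with SLNCR1, 4038 and 4008 with SLNCR1 conserved, and 3875 and 3758 with SLNCR1 delta conserved. Raw reads were thus nearly equal in all 8 libraries, and lowest in the shallowest one. Normalized, HSP90AB1 stood at 3424 ± 228 (SD, n = 2) in vector, 4134 ± 162 with SLNCR1, 3776 ± 288 with SLNCR1 conserved and 4497 ± 305 with SLNCR1 delta conserved. The vector and SLNCR1 conserved libraries overlapped, and those of SLNCR1 and of delta conserved stood above them without overlap. In the authors' deposited table its fold was 1.31 with SLNCR1 delta conserved (adjusted p = 0.00957) and 1.21 with SLNCR1 (adjusted p = 0.24). By limma the log2 difference from vector was 0.39 with delta conserved (SE 0.0775, adjusted p = 0.00446) and 0.27 with SLNCR1 (adjusted p = 0.0325).

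HSP90AA1 encodes the stress-inducible HSP90 of the cytosol. It had 4388 and 4346 reads in vector, 4223 and 4097 with SLNCR1, 4439 and 4283 with SLNCR1 conserved, and 4011 and 3935 with SLNCR1 delta conserved. The 2 delta conserved libraries had the fewest reads and the highest mean normalized count, 4684 ± 356 (SD, n = 2), against 3681 ± 216 in vector. The means of SLNCR1 conserved (4090 ± 231) and SLNCR1 (4356 ± 191) lay between them, and the libraries of these groups overlapped each other. Those of SLNCR1 also overlapped the delta conserved libraries, and all 6 construct libraries stood above both vector libraries. Its fold with delta conserved was 1.27 in the authors' deposited table (adjusted p = 0.0468). By limma the log2 difference was 0.35 (SE 0.0761, adjusted p = 0.00824) with delta conserved and 0.24 (adjusted p = 0.047) with SLNCR1.

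HSPA8 encodes HSC70, the constitutive HSP70 of the cytosol, which also serves clathrin uncoating and chaperone-mediated autophagy. Its reads were 3949 and 3927 in vector, 3833 and 3734 with SLNCR1, 3893 and 3763 with SLNCR1 conserved, and 3721 and 3586 with SLNCR1 delta conserved. Normalized levels were 3320 ± 204 (SD, n = 2) in vector, 3962 ± 185 with SLNCR1, 3590 ± 207 with SLNCR1 conserved and 4304 ± 273 with delta conserved. As for HSP90AB1, only the vector and SLNCR1 conserved libraries overlapped. In the authors' deposited table for delta conserved HSPA8 had the smallest adjusted p of the members, with a fold of 1.29 (adjusted p = 0.00757). By limma it was higher in delta conserved by a log2 difference of 0.37 (SE 0.0749, adjusted p = 0.00489) and with SLNCR1 by 0.26 (adjusted p = 0.0368).

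HSPA1A and HSPA1B encode the stress-inducible HSP70, and their proteins are nearly the same. HSPA1A had 369 and 389 reads in vector, 344 and 351 with SLNCR1, 393 and 352 with SLNCR1 conserved, and 305 and 273 with SLNCR1 delta conserved. HSPA1B had 515 and 506, 468 and 459, 504 and 457, and 417 and 367 reads in the same order. From vector library a to SLNCR1 delta conserved library b, HSPA1A lost 26.0% of its reads and HSPA1B 28.7%, more than any other member. The loss was smaller for the constitutive HSP90AB1 (7.37%) and HSPA8 (9.19%), but also for the stress-inducible HSP90AA1 (10.3%). It was 21.7% for DNAJB1 and 22.5% for DNAJA1. Of the 50-base windows in the longest HSPA1A transcript, 72.6% also occur in HSPA1B, so how the authors' counting split reads between the genes is uncertain. HSPA1A stood at 320 ± 33 (SD, n = 2) in vector, 364 ± 29 with SLNCR1, 349 ± 1.3 with SLNCR1 conserved and 340 ± 3.8 with delta conserved. HSPA1B stood at 430 ± 23 in vector, 485 ± 25 with SLNCR1, 450 ± 5.6 with SLNCR1 conserved and 460 ± 0.36 with delta conserved. Both had their highest mean with SLNCR1 and not with delta conserved, unlike the other 8 members. Neither passed either test in any comparison: by limma with delta conserved the log2 difference was 0.0899 for HSPA1A (95% interval -0.11 to 0.29, adjusted p = 0.638) and 0.0989 for HSPA1B (95% interval -0.0733 to 0.27, adjusted p = 0.517). Differences of the size measured for HSP90AB1 lie outside these intervals.

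HSPH1 encodes HSP110, a nucleotide exchange factor of HSP70. Its normalized level was 2734 ± 119 (SD, n = 2) in vector, 3036 ± 79 with SLNCR1, 3079 ± 97 with SLNCR1 conserved and 3189 ± 279 with SLNCR1 delta conserved. The construct groups overlapped, and all stood above vector. Neither the authors' test nor limma over the 8 libraries called it. By limma the log2 difference was 0.22 with delta conserved (SE 0.0725, adjusted p = 0.0614). HSPH1 was called when only the 4 libraries of these groups were fitted, and that fit called 2366 genes, against 1674 with all 8 libraries. HSPH1 was the only member whose mean with SLNCR1 was below that with SLNCR1 conserved. No 50-base window of its longest transcript was found in another gene.

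DNAJB1 and DNAJA1 are J-proteins that deliver clients to HSP70, and DNAJB1 is the stress-inducible one. DNAJB1 stood at 1692 ± 107 (SD, n = 2) in vector, 1925 ± 64 with SLNCR1, 1794 ± 56 with SLNCR1 conserved and 1938 ± 49 with delta conserved. Vector and SLNCR1 conserved overlapped, as did SLNCR1 and delta conserved, and neither the authors' test nor limma over the 8 libraries called it. By limma its adjusted p was 0.0806 with SLNCR1 and 0.0762 with delta conserved. It passed in some fits with 1 library left out, which leave 1 library in a group, and these calls are not read as a result. DNAJA1 stood at 1640 ± 4.5 in vector, 1917 ± 101 with SLNCR1, 1861 ± 61 with SLNCR1 conserved and 1945 ± 47 with delta conserved. Its vector libraries were closer to each other than for any other member, and all 6 construct libraries lay above them. By limma it was higher with SLNCR1 by a log2 difference of 0.22 (SE 0.0664, adjusted p = 0.0385) and with delta conserved by 0.25 (adjusted p = 0.0247), and with SLNCR1 conserved the difference was 0.18 (adjusted p = 0.828).

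HSPB1 encodes HSP27, which holds unfolding proteins without using ATP. Its level was 917 ± 62 (SD, n = 2) in vector, 1084 ± 66 with SLNCR1, 955 ± 44 with SLNCR1 conserved and 1108 ± 6.8 with SLNCR1 delta conserved. The SLNCR1 and delta conserved libraries overlapped and stood above all 4 others. By limma HSPB1 was higher with SLNCR1 by a log2 difference of 0.24 (SE 0.0738, adjusted p = 0.0433) and with delta conserved by 0.27 (adjusted p = 0.0242).

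HSPD1 encodes HSP60, the folding chamber of the mitochondrial matrix. Its level was 2216 ± 149 (SD, n = 2) in vector, 2643 ± 141 with SLNCR1, 2448 ± 117 with SLNCR1 conserved and 2766 ± 183 with SLNCR1 delta conserved. Only the SLNCR1 and delta conserved libraries overlapped. In the authors' deposited table HSPD1 was the member nearest to passing, with a fold of 1.25 in delta conserved (adjusted p = 0.0581). By limma it was higher with delta conserved by a log2 difference of 0.32 (SE 0.0745, adjusted p = 0.0113) and with SLNCR1 by 0.25 (adjusted p = 0.0364). HSPE1, which encodes the HSP10 lid of the same chamber and shares its promoter region, stood at 217 ± 5.3 in vector and 252 ± 5.1 with delta conserved, and neither the authors' test nor limma over the 8 libraries called it.

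Counted by library, both SLNCR1 libraries stood above both vector libraries for 10 of 10 members, as they did for 27.2% of all genes. With SLNCR1 delta conserved this held for 9 members, all but HSPA1A (27.7% of genes), and with SLNCR1 conserved for 5 (25.1% of genes). The order of group means from delta conserved through SLNCR1 and SLNCR1 conserved to vector occurred in 7 of the 10 members, and it is the inverse of the order of group depth. The exceptions were HSPA1A, HSPA1B and HSPH1.

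Library depth moved with these levels. SLNCR1 delta conserved library b had 31.6% fewer reads in total than vector library a, but 7.37% fewer reads of HSP90AB1, 9.19% fewer of HSPA8 and 10.3% fewer of HSP90AA1. HSPA1B, with 28.7% fewer, came nearest to the drop in the total, and the median of the 10 members was 18.2%. The members' summed share of all reads was 0.202% in vector library a and 0.255% in delta conserved library b. The same direction was seen between libraries of 1 group: library b, the shallower, had the higher normalized level for 10 of 10 members in vector and in SLNCR1 conserved, and for 9 of 10 with SLNCR1 (not HSPH1) and with delta conserved (not HSPA1B). Of all genes, 54.2% were higher in b in vector, 51.6% with SLNCR1, 54% with SLNCR1 conserved and 53.4% with delta conserved. The members' median difference of b from a was 0.13 on the log2 scale in vector, 0.1 with SLNCR1, 0.0797 with SLNCR1 conserved and 0.0907 with delta conserved, against 0.0181, 0.00928, 0.0109 and 0.0112 for all genes. Library b had 5.78% to 10.5% fewer reads than a.

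**Figure D2:**
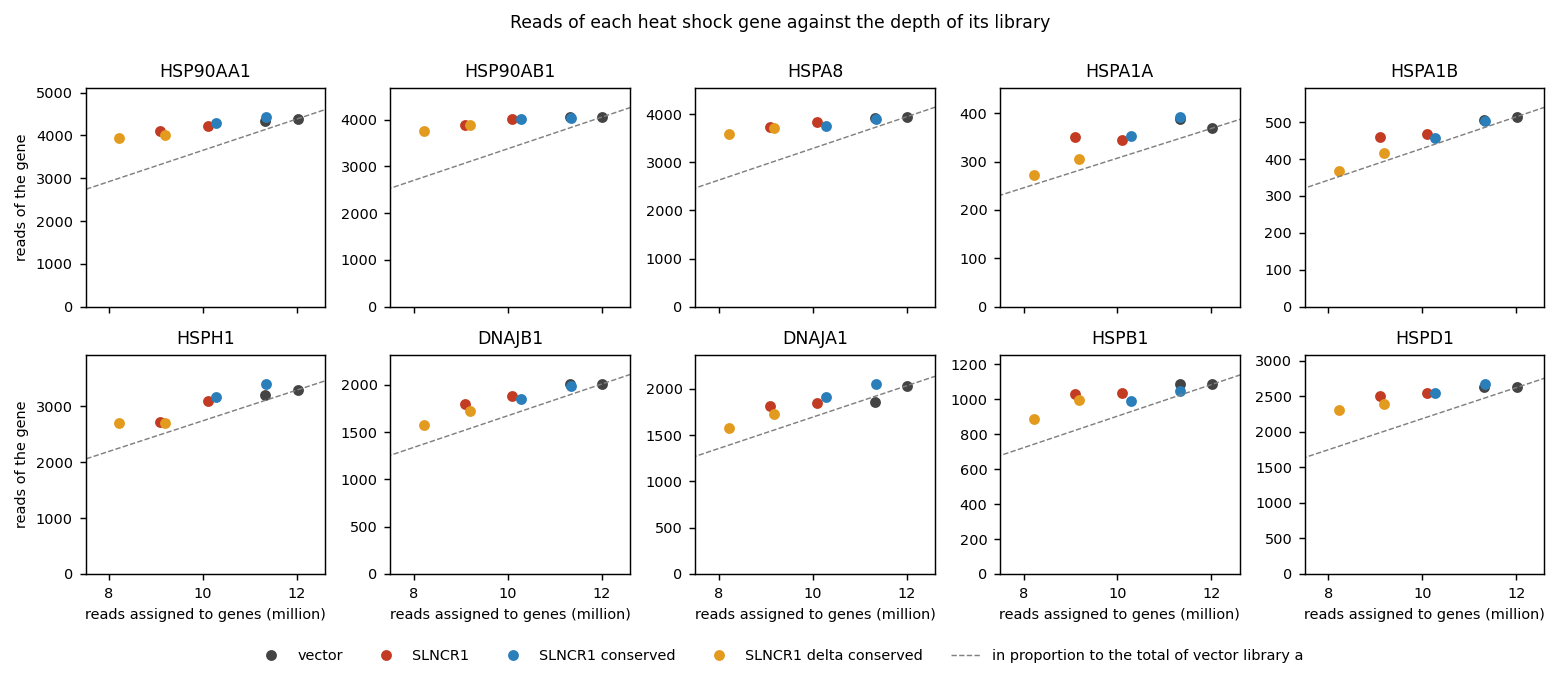
Reads of each heat shock gene (vertical axis, from 0) against the reads assigned to genes in its library (horizontal axis); each panel is 1 gene, each point 1 library coloured by group, and the dashed line is the number of reads in proportion to the total of vector library a. HSP90AB1 has 3758 to 4064 reads at all depths, while HSPA1B runs from 515 down to 367, close to the line.

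The members with the flattest reads were among the densest genes. Vector library a had 1361 reads per kb of exon for HSP90AB1 (higher than 99.8% of 9739 genes with at least 200 reads), 836 for HSP90AA1, 814 for HSPA8, 746 for DNAJA1, 665 for HSPB1, 618 for HSPD1, 547 for DNAJB1, 393 for HSPH1, 204 for HSPA1B and 149 for HSPA1A. On this scale, which sets reads against exon length, the inducible HSP70 genes were the lowest members as counted. The reads that HSPA1A and HSPA1B share were split or left out in an unknown way. The length is the union of all annotated exons, for HSPA8 4849 bases against 2463 in its longest transcript. The order of the members therefore depends on the length used. Over all genes the log2 ratio of reads in delta conserved library b to vector library a had a median of -0.74 below 64 reads per kb, -0.62 from 128 to 256, -0.34 from 512 to 1024 and -0.18 above 1024. The ratio of the totals was -0.55. Between the 2 vector libraries, which received the same plasmid, this median ran the same way, from -0.195 in the lowest range to 0.0104 in the highest. In the range of 512 to 1024 reads per kb, which holds 692 genes and 6 of the members, the median limma difference over all genes was 0.19 with SLNCR1, 0.0905 with SLNCR1 conserved and 0.21 with delta conserved. Above 1024, with 54 genes and HSP90AB1, the medians were 0.28, 0.13 and 0.36. Exon lengths came from GENCODE release 29 on GRCh38, while the authors counted on hg19.

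**Figure D3:**
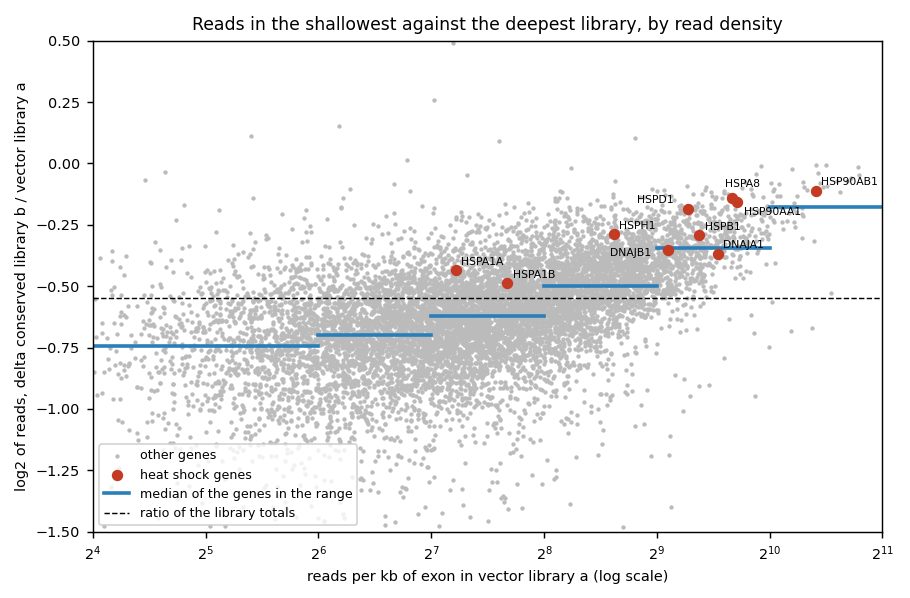
Log2 of the reads of each gene in SLNCR1 delta conserved library b over those in vector library a (vertical axis) against its reads per kb of exon in vector library a (horizontal axis, log scale); grey points are genes with at least 200 reads (those beyond the axes are not drawn), red points the 10 heat shock genes, blue bars the median of each range and the dashed line the ratio of the library totals, -0.55. HSP90AB1 lies at the dense end at -0.11, and HSPA1B at -0.49.

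When log2 of the library total was added to the limma model as a covariate, an alternative chosen after the data were seen, no member was called in any comparison. The median member difference was then 0.0194 with SLNCR1, 0.046 with SLNCR1 conserved and -0.00348 with delta conserved. For HSP90AB1 with delta conserved, the log2 difference of 0.39 became 0.0115, and its SE grew from 0.0775 to 0.13, since depth and construct run together. With cyclic loess, a correction over abundance that was also added after the data were seen, the member medians were 0.16 with SLNCR1, 0.0637 with SLNCR1 conserved and 0.15 with delta conserved. HSP90AB1 (log2 difference 0.21, adjusted p = 0.0295) and HSPA8 (0.19, adjusted p = 0.037) were still called by limma with delta conserved, and no member was with the other constructs. Over all genes 11 were still called with delta conserved and 46 with SLNCR1 in the model with the covariate. The fitted slope in it was a log2 change of -0.897 for HSP90AB1, -0.825 for HSPA8 and -0.376 for HSPA1B per doubling of the total, with a median of -0.612 over the 10 members and -0.0116 over all genes. Construct and depth are confounded between groups, and their parts in the members' levels cannot be told apart from 2 libraries a group. The summed normalized count of the 12 melanocyte and neural crest markers also stood higher with SLNCR1 (19070 to 19370) and delta conserved (19220 to 19740) than in vector (16530 to 18020), and so did the 4 keratinocyte markers (708 to 768 and 719 to 774 against 645 to 689). The 5 fibroblast markers summed to 358 to 369 with delta conserved, 212 to 218 with SLNCR1 and 163 to 397 with SLNCR1 conserved, against 218 to 244 in vector. The part of these markers in the result was not tested.

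**Figure D4:**
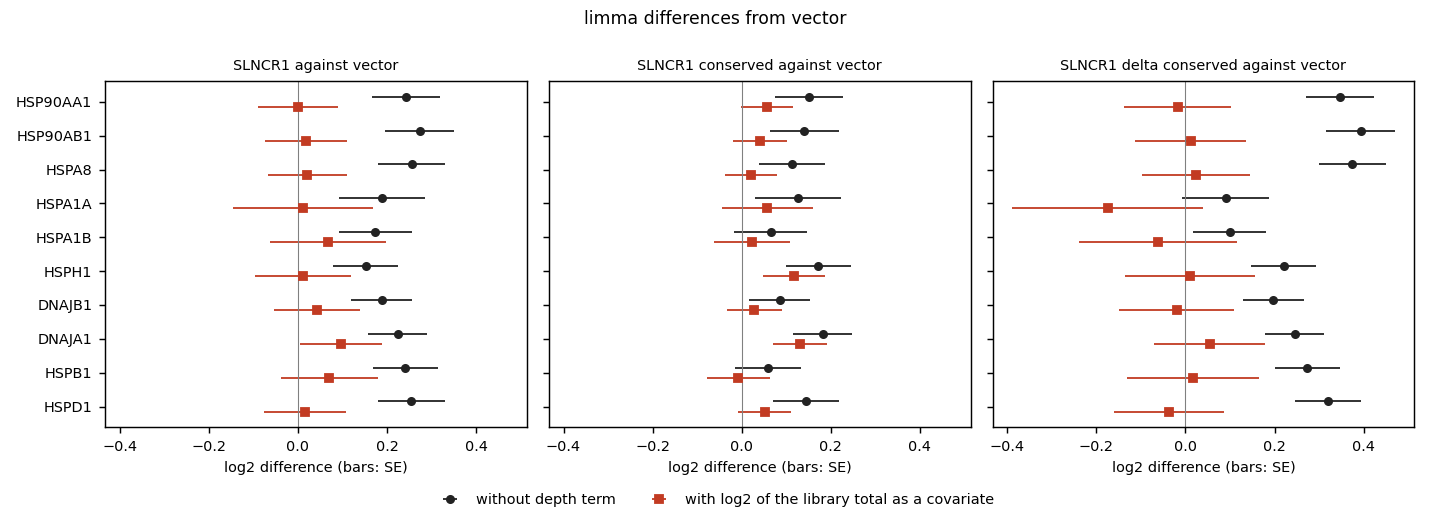
Log2 difference of each heat shock gene from vector by limma (horizontal axis; bars are SE) for the 3 constructs, without a depth term (black circles) and with log2 of the library total as a covariate (red squares). Without the term every difference is above 0, and with it the medians over the 10 genes are 0.0194, 0.046 and -0.00348.

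The constructs were also compared with each other, by limma. Between SLNCR1 and SLNCR1 delta conserved no member and no other gene of 16049 passed (0% called, and 7.99% at an unadjusted p under 0.05, with 0 members among them). The member differences ran from -0.12 (HSP90AB1, 95% interval -0.28 to 0.0426) to 0.0983 (HSPA1A, 95% interval -0.11 to 0.3), with a median of -0.0488. Between SLNCR1 and SLNCR1 conserved no member passed and 11.5% of genes did; HSPB1 had the largest member difference, 0.18 (95% interval 0.0261 to 0.34, adjusted p = 0.123), and it alone had an unadjusted p under 0.05, which 27.2% of all genes had. SLNCR1 conserved and SLNCR1 delta conserved differed for 1 member, HSPA8, which was lower with the conserved region by a log2 difference of -0.26 (SE 0.0749, adjusted p = 0.042); 6.91% of all genes were called in either direction and 1.12% lower. HSP90AB1 (log2 difference -0.25, adjusted p = 0.0596) and HSPB1 (-0.21, adjusted p = 0.0954) followed without passing by limma. Both conserved libraries stood below both delta conserved libraries for 8 of the 10 members, which 28.9% of all genes did. With the depth covariate the HSPA8 difference was -0.00234, and leaving out any 1 of the 4 libraries also ended the call.

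The rest of the chaperone network was read from lists of 102 genes. TRiC, the ring of CCT subunits that folds actin and tubulin, and prefoldin, which feeds it, were the list most like the members. With SLNCR1 delta conserved its median log2 in the authors' deposited table was 0.27, against 0.00767 for all entries. There 6 of 14 rose (TCP1, CCT2, CCT3, CCT4, CCT6A and CCT7), where 1.11% of all entries tested were called higher. CCT7 (log2 0.34, adjusted p = 0.013) and CCT3 (0.33, adjusted p = 0.00484) led them in the authors' deposited table, before CCT2 (0.29, adjusted p = 0.00799) and CCT4 (0.27, adjusted p = 0.0217). With the depth covariate the median of these 14 genes by limma was -0.00848. Among 14 HSP90 co-chaperones none passed in the authors' deposited table, and limma called 5 higher with delta conserved: AHSA1, CDC37, FKBP4, PTGES3 and STIP1, where 5.18% of all genes were called higher. The median of these 14 genes by limma was 0.12, and -0.105 with the depth covariate. PTGES3 (p23, which stabilises the client-bound state) had a log2 difference of 0.28 (adjusted p = 0.0161) by limma, and STIP1 (HOP, which links HSP70 to HSP90) 0.24 (adjusted p = 0.0394).

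The HSP70 family with its exchange factors and J-proteins had members on both sides of vector. With SLNCR1 delta conserved 2 of 31 fell and none rose in the authors' deposited table, where 2.26% of all entries passed. Its median log2 in the authors' deposited table was 0.00648, with 17 of 31 above 0, against 0.00767 for all entries. HSPA4L, an HSP110 relative, had a log2 of -0.48 (adjusted p = 0.0222) and DNAJB5, a J-protein, -0.73 (adjusted p = 0.021) in the authors' deposited table. By limma both were lower with SLNCR1 as well, HSPA4L by -0.62 (adjusted p = 0.00642) and DNAJB5 by -0.55 (adjusted p = 0.0351), and both were higher with SLNCR1 conserved than with delta conserved, by 0.57 (adjusted p = 0.0109) and 0.61 (adjusted p = 0.0257). ST13, a cochaperone of HSC70, was the 1 gene of the 31 that limma called higher with SLNCR1 (log2 difference 0.25, adjusted p = 0.0391). The same held with delta conserved (0.25, adjusted p = 0.0398). Of all genes, 3.97% and 5.18% were called higher in these comparisons. None of 16 mitochondrial chaperones and proteases passed in the authors' deposited table. Limma called 1 of the 16, HSPA9 (mortalin, the mitochondrial HSP70), higher with delta conserved (0.22, adjusted p = 0.0457), where 5.18% of all genes were called higher. Of 7 further measured genes that were listed by symbol as small heat shock proteins, none passed in the authors' deposited table with any construct. Limma tested the 3 with a mean of at least 10. It called HSPB11 higher with SLNCR1 (log2 difference 0.33, adjusted p = 0.0353), where 3.97% of all genes were called higher.

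Among known HSF1 targets outside these lists, P4HA2 rose and ATF3 fell with SLNCR1 delta conserved in the authors' deposited table. The median log2 of the list there was 0.22, with 10 of 13 above 0, against 0.00767 for all entries. By limma its median was 0.23, and -0.0633 with the depth covariate. P4HA2, a collagen prolyl hydroxylase subunit, had a log2 of 0.33 (adjusted p = 0.0357) in the authors' deposited table. ATF3, a stress-induced transcription factor, had a log2 of -0.35 (adjusted p = 0.00495) there, in the authors' deposited table. By limma ATF3 was also lower with SLNCR1 (-0.35, adjusted p = 0.00491) and higher with SLNCR1 conserved than with delta conserved (0.6, adjusted p = 2.54e-05). HSF1, the master regulator of the response, stood at 1476 ± 111 (SD, n = 2) in vector, 1594 ± 42 with SLNCR1, 1466 ± 11 with SLNCR1 conserved and 1478 ± 30 with delta conserved, and neither the authors' test nor limma over the 8 libraries called it. HSF2, which can pair with HSF1, stood at 314 ± 15 in vector, 247 ± 10 with SLNCR1, 334 ± 11 with SLNCR1 conserved and 254 ± 17 with delta conserved. Both HSF2 levels with SLNCR1 and both with delta conserved were below all others, opposite to the members. By limma HSF2 was lower with SLNCR1 (log2 difference -0.34, adjusted p = 0.0326) and higher with SLNCR1 conserved than with delta conserved (0.39, adjusted p = 0.0186), and with delta conserved against vector it was at -0.31 (adjusted p = 0.0546). In the authors' deposited table none of the 6 heat shock factor genes passed with any construct.

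The genes whose pattern lay nearest to the mean of the 10 members over the 8 libraries were found by the root-mean-square difference in log2 level relative to vector, over 11193 genes with a mean of at least 100. They were LRRC59 (0.011), HNRNPD (0.0125), XRCC6 and PSMA3 (both 0.0141), TCP1 (0.0142), CCT4 (0.0149), TMSB4X (0.0159), UBA1 (0.017), KARS (0.0171) and PPP1CC (0.0179). They had 209 to 822 reads per kb of exon in vector library a. The members themselves lay 0.0402 (DNAJB1, rank 344 among the genes) to 0.0925 (HSPA1A, rank 1851) from their own mean. The 10 genes named were picked as the nearest, so their smaller distances are no result.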

How the data were processed

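Poly(A)-selected RNA was sequenced from 8 libraries, 2 for each of 4 plasmids. Per the submitters' processing notes, reads were handled with STAR, featureCounts and DESeq on hg19. For versions, annotation release and the handling of duplicate or multiply mapped reads: not given in the sources used here. Each of the 3 tables the authors deposited compares 1 construct with vector. They hold mean normalized counts for each group (a signal that, per the file headers, is a base mean), the fold (a ratio of these means, per the file headers), and the p-value and adjusted p-value that the authors deposited.

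Reads of single libraries were solved from the deposited means as the only whole numbers that give a gene's mean. This gave a single solution for 100% of entries with reads in 3 groups and for 99.98% in SLNCR1 conserved, where 6 entries with several solutions were left out. On simulated means, 100% of solved entries were correct. The libraries were scaled together by median-of-ratios size factors and fitted with limma 3.58.1 in R 4.3.3 on log2(normalized count + 1), with a variance trend, over the 16049 genes with a mean of at least 10 (4 residual degrees of freedom, 13.6 prior). P-values were adjusted by the Benjamini-Hochberg method over all genes, with a threshold of 0.05. No count model was run on the solved reads. On simulated counts of 16055 genes for SLNCR1 delta conserved against vector, limma recovered 67.7% of genes changed 1.5-fold and 98.4% of those changed 4-fold. The largest fold of a member was 1.31, below the smallest change simulated, and no normalized level was tied to depth in the simulation. These rates therefore do not apply to the members.

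The test against vector was the authors' own, limma was the second test, and constructs were compared with each other by limma only. The named genes are the 10 members, LINC00511, HSF1 and HSF2, up to 4 called genes of each related list (all where at most 5 passed) and the 10 genes most alike. Members and lists were chosen with earlier results of these data known. Alternatives were the other scalings, a pseudocount of 8, no filter on low counts, the 4 libraries compared, each library left out and, added after the data were seen, log2 of the library total as a covariate and cyclic loess. The depth of 8222868 to 12015394 reads per library sets the precision, and counting error alone is not the spread between libraries. Exon lengths and shared windows are from GENCODE release 29 and promoters from RefSeq on GRCh38.p14. 1 result of the list of known HSF1 targets is not reported here.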

Additional observations from a re-analysis of the deposited data

How the results depend on the processing

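Counts of called members moved with the test. In place of the authors' adjusted p under 0.05, limma called 6 members with SLNCR1 (0 by the authors) and 6 with SLNCR1 delta conserved (3 by the authors), and the authors' adjusted p under 0.1 gave 6 with delta conserved. The limma count of 6 with SLNCR1 became 1 with trimmed-mean scaling and 0 with all genes that have a read, with the 4 libraries of these groups alone, with the log2 library total as a covariate or with cyclic loess. Leaving out 1 library gave median member differences from 0.175 (without SLNCR1 b) to 0.3 (without vector b), against 0.232 with all 8. The limma count of 6 with delta conserved became 3 with all genes that have a read, 0 with the covariate and 2 with cyclic loess. It became 4 with trimmed-mean scaling or library totals and 7 with the 4 libraries of these groups alone (HSPH1 added). With 1 library left out, the median member difference ran from 0.226 (without vector a) to 0.306 (without vector b), against 0.26 with all 8. SLNCR1 against SLNCR1 conserved had 0 under every alternative that kept both libraries of each group. With 1 library left out, its median member difference ran from 0.0566 to 0.154, against 0.106 with all 8. SLNCR1 conserved against delta conserved had 1 (HSPA8), 0 with trimmed-mean scaling, all genes, the covariate, cyclic loess or any library left out (0 to 0), 2 with library totals and 5 with its 4 libraries alone. Calls over all genes moved too. With SLNCR1 limma called 1826 genes, 1670 with trimmed-mean scaling, 492 with all genes that have a read, 832 with the 4 libraries and 1395 with cyclic loess. With delta conserved it called 1674, and 653, 2366 and 1049 with all genes, the 4 libraries and cyclic loess. Between SLNCR1 conserved and delta conserved it called 1109, 1231 with library totals and 3193 with the 4 libraries. The cause of these changes was not tested.

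Of 660 single-member values under alternatives, 3 turned sign after being called, all with the covariate: HSP90AA1 with SLNCR1 (-7.07e-05) and with delta conserved (-0.0178), and HSPD1 with delta conserved (-0.0375). A further 80 kept their direction and lost the call, and 9 gained one. No paired analysis was possible because the solved libraries cannot be tied to replicate numbers. Depth differs with the construct, which limits what the comparisons with vector can show.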
